A study of Homo sapiens and Homo sapiens
Mus musculus and Mus musculus with 9 samples.

Results

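The replication-dependent histone genes were examined in RNA-Seq of C4-2B human prostate cancer cells grown with or without mouse MC3T3-E1 osteoblasts. Members were the protein-coding genes whose symbols follow the naming of the clustered H1, H2A, H2B, H3 and H4 genes, which gave 67 of the 19939 protein-coding genes and of the 41713 genes listed. By class, 6 encode the linker histone H1, 16 encode H2A, 17 encode H2B, 13 encode H3 and 15 encode H4. The series holds 3 libraries of C4-2B cells cultured alone, 3 libraries of the mixed culture seeded with 1 part C4-2B and 30 parts MC3T3-E1, and 3 libraries of MC3T3-E1 cells alone, all of wild-type genotype and kept in alpha-MEM with serum. The paper describes the C4-2B cells of its mixed co-cultures as labelled with GFP. The co-culture was harvested with both species together, so human and mouse reads were separated by computation, and the MC3T3-E1 libraries were not analysed here. The libraries were made with a stranded mRNA kit. The values used are means over 6 libraries of counts divided by size factors, given once for each of 3 pipelines (Xenome, XenofilteR and Kallisto). These means carry no spread, and the question of whether histone genes differed between co-culture and C4-2B alone was not tested here.

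Replication-dependent histone genes are switched on at the start of S phase, when new nucleosomes are needed behind the replication fork. Most lack introns, and their mRNAs end in a short stem-loop instead of a poly(A) tail. The stem-loop is bound by SLBP, which directs processing and translation of the mRNA, and the mRNA is degraded when replication stops. Some of these genes also make polyadenylated transcripts, which a poly(A)-based mRNA kit retains. The 4 core histones form the nucleosome, and H1 binds the linker DNA.

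The stem-loop was searched in the bases that follow the stop codon, because it separates this family from other genes and marks where the mature mRNA ends. The motif was the 16-base histone stem-loop, a stem of 6 paired bases that opens with GG and closes with CC around a loop of 4 bases that starts with TT, on the gene's own strand within 200 bases of the stop codon in GRCh38. It was found in 64 of the 67 members and in 75 of 19950 protein-coding genes (0.376%), of which 11 were not members. H3C6, H4C13 and H2BC10 had no match in this window. The first base lay 22 to 67 bases after the stop codon, with a median of 35.5. The stem-loops of the member with the highest Xenome mean of each class are given 5′ to 3′, with the stem-loop in capitals and the adjoining bases in lower case.
H1-2: caaaaGGCTCTTTTCAGAGCCaccactgat
H2AC6: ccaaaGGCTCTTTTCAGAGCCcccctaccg
H2BC12: ccaaaGGCTCTTTTAAGAGCCacttaaatt
H3C10: ccaaaGGCTCTTTTCAGAGCCacccacatg
H4C9: aaaaaGGCCCTTTTTAGGGCCcctaagctt
Those of H1-2 and H2BC12 lie on the minus strand at chr6:26055744-26055759 and chr6:27146366-27146381. Those of H2AC6, H3C10 and H4C9 lie on the plus strand at chr6:26124669-26124684, chr6:27810516-27810531 and chr6:27139654-27139669. The form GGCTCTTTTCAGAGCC was carried by 38 members, namely 4 of H1, 12 of H2A, 11 of H2B and 11 of H3. The form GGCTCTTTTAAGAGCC was carried by 9 members of those 4 classes, among them 5 H2B genes. The H4 genes had their own stem, with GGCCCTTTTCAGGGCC in 10 and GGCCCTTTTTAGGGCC in 4. The 3 remaining forms were each found in a single H2A gene.

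Of the 67 members, 42 (62.7%) had a Xenome mean count of at least 10, beside 66.9% of all protein-coding genes. Counts were concentrated in few genes. The members' means summed to 42517, and the highest 10 held 89.0% of that sum. H2B genes held 39.8% of the sum, H1 28.1%, H2A 15.5%, H4 10.6% and H3 6.02%. These are sums of counts and are not corrected for length. They come from an mRNA kit, and how far it captured histone mRNAs without a poly(A) tail was not tested. The shares are therefore not those of all histone mRNA in the cells.

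H1-2 (ENSG00000187837, chr6:26055787-26056428), a linker histone, had the highest mean count of the family at 11610, which was 97.3% of the H1 sum. The other H1 genes ran from H1-4 at 158.9 and H1-5 at 156.7 down to H1-6, the testis form, at 10.6, H1-1 at 0.670 and H1-3 at 0.523. H2BC12 (ENSG00000197903, chr6:27146418-27146798) was the highest H2B gene, with a mean count of 6757. H2BC21 followed at 4097, H2BC11 at 2074, H2BC5 at 1231 and H2BC4 at 1203. Among H2A genes, H2AC6 (ENSG00000180573, chr6:26124145-26139116) reached 4702, which was 71.2% of the H2A sum, and H2AC11 reached 1355. H3C10 (ENSG00000278828, chr6:27810064-27811300) held 77.6% of the H3 sum, with a mean count of 1987. H4C9 (ENSG00000276180, chr6:27138588-27139881) had a mean count of 2081 and H4C8 had 1930. H4C9 held 46.1% of the H4 sum and H2BC12 held 40.0% of the H2B sum. Some of these shares depended on the pipeline. With Kallisto, H2AC6 held 44.8% of the H2A sum and was followed by H2AC19 at 3406, and the highest H4 genes were H4C8 at 1904, H4C15 at 1660 and H4C9 at 1649, the last with 23.8% of the H4 sum. The highest genes of H1, H2B and H3 were those named above in both pipelines, with 97.3%, 31.6% and 65.5% of their class with Kallisto. Per kb of exon in GENCODE release 44, the order at the top with Xenome was H1-2 at 15882, H2BC12 at 13651, H4C9 at 5241, H2AC6 at 2819 and H2AC11 at 2748 mean counts per kb. This order depended on the length and the pipeline. Per kb of coding sequence with Xenome it was H1-2 at 18084, H2BC12 at 17735, H2AC6 at 11964.5, H2BC21 at 10754 and H4C9 at 6669. Per kb of exon with Kallisto, H2AC19 at 6378 came after H2BC12 at 10723 and above H4C9 at 4153, and H2AC11 at 2846 was above H2AC6 at 2772.

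The 8 members listed without a Xenome mean were H2BC1, H2BC10, H2AC1, H2AC15, H3C4, H3C7, H4C6 and H4C7, and of these Kallisto gave a mean above 0 only for H2AC15, at 4.64. By location, 55 members lie on chromosome 6 between 25726132 and 27893843, 11 on chromosome 1 between 149782689 and 149888013, and H4-16 on chromosome 12 at 14767999 to 14771131. The summed mean counts were 37855 on chromosome 6, 4542 on chromosome 1 and 120.5 for H4-16. With Kallisto the sum on chromosome 1 was 12215, and on chromosome 6 it was 36369.5. In GENCODE release 44, 53 members have single-exon transcripts only.

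**Figure D1:**
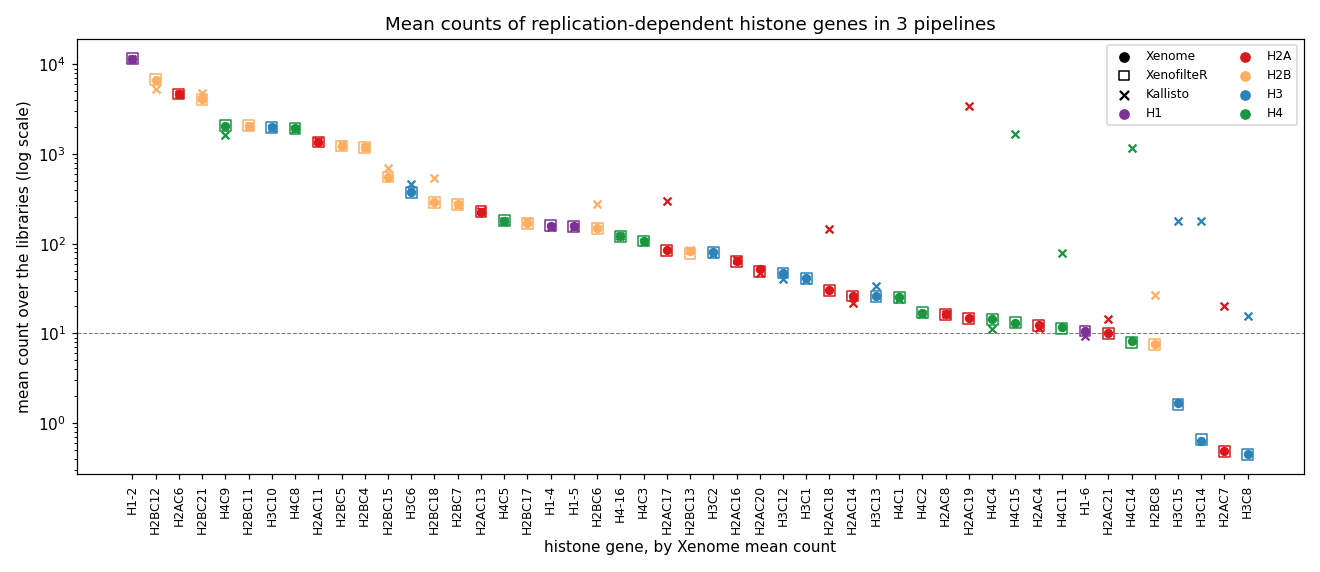
Mean count over the libraries (log scale) of the members with a mean of at least 10 in Xenome or Kallisto, ordered by Xenome. Circles, squares and crosses stand for Xenome, XenofilteR and Kallisto, colours for the histone class, and the dashed line for a mean of 10; crosses far above the circles mark genes such as H2AC19, at 3406 with Kallisto and 14.7 with Xenome.

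The gene spans of the deposited table differed in where they ended, and the mean counts differed with them. Of the 64 members with a stem-loop, 33 had a span that ended before the last base of the loop, 9 ended up to 100 bases past it and 22 ended further downstream. The median Xenome mean count was 10.6 in the first set, 17.0 in the second and 281.7 in the third, with members without a value taken as 0. The Kallisto medians were 11.4, 79.1 and 942.3. A mean of at least 1000, which 36.7% of protein-coding genes reached, was found in 2 of the 33, in none of the 9 and in 9 of the 22. The 2 exceptions were H1-2 and H2BC12, whose spans stopped 43 and 52 bases short of the end of the loop. The spans that reached furthest past the loop were those of H2BC18 (29196 bases, mean count 288.6) and H2BC15 (26693 bases, 562.3). H2AC6 and H2BC5 reached 14432 and 12747 bases past the loop, each with a transcript of 2 exons. H4C15 and H4C14 reached 6724 and 6720 bases past it, with mean counts of 13.2 and 8.21. A span includes introns, and that of H2AC6 covers 14972 bases beside 1668 exon bases in GENCODE release 44. A longer span can collect more reads, and its part in these values was not tested. The 6 members commonly described as making polyadenylated transcripts (H1-2, H2BC5, H2AC6, H2BC12, H2BC21 and H4C8, a list written from general knowledge) were all among the highest 10 and held 71.3% of the family's summed mean count. With Kallisto 5 of the 6 were among the highest 10, and the list held 60.2%.

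**Figure D2:**
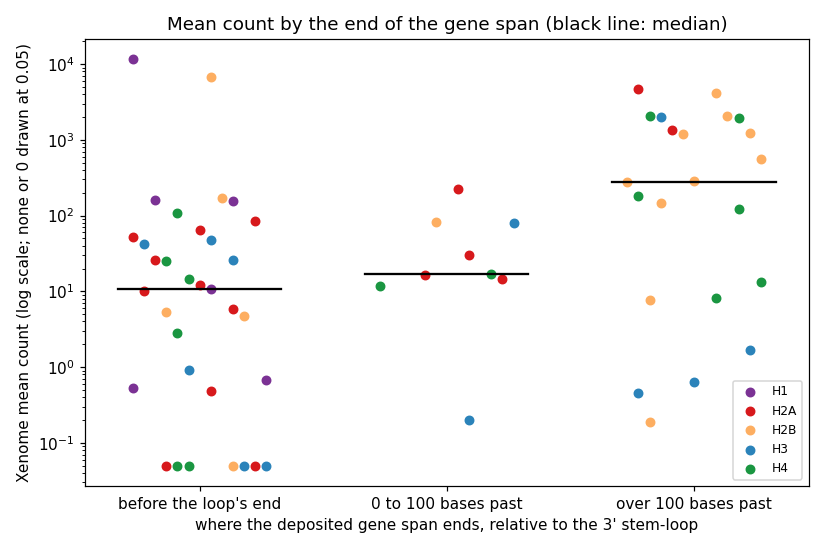
Xenome mean count (log scale) of the 64 members with a stem-loop, by where the deposited gene span ends relative to the loop; points are genes coloured by class, black lines are medians, and genes without a value or at 0 are drawn at 0.05. The medians are 10.6, 17.0 and 281.7 from left to right.

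H2A and H2B genes are often arranged head to head and share the DNA between their start sites. There were 11 such H2A and H2B pairs with 169 to 250 bases between the start sites of GENCODE release 44, and both genes had a Xenome mean in 9. In H2AC12 and H2BC12 the H2A gene had a mean count of 5.83 and the H2B gene 6757, a ratio of 1069 per kb of exon. In H2AC7 and H2BC7 the means were 0.482 and 274.8, a ratio of 615 per kb. That ratio was 14.4 with Kallisto, which gave H2AC7 20.1 and H2BC7 269.0, and H2AC7 has 15.4% unique sequence and 8, 6, 2, 0, 0 and 0 reads in the 6 libraries, as solved from the means. In H2AC20 and H2BC21 the means were 51.7 and 4097, a ratio of 17.6 per kb of exon and of 81.1 per kb of coding sequence. H2AC17 and H2BC17 differed less, at 85.0 and 169.6, a ratio of 2.08 per kb. These 4 pairs had the H2B gene higher. The H2A gene was higher per kb in the other 5. H2AC6 stood at 4702 against 1203 for H2BC4, and H2AC14 stood at 26.1 against 5.27 for H2BC14. The remaining pairs were H2AC13 at 227.3 with H2BC13 at 82.9, H2AC8 at 16.5 with H2BC8 at 7.58, and H2AC11 at 1355 with H2BC11 at 2074. The order within H2AC11 and H2BC11 depended on the length used, since the H2B to H2A ratio was 0.722 per kb of exon and 1.58 per kb of coding sequence. With Kallisto, H2AC17 was above H2BC17 (301.4 and 178.3) and H2BC8 was above H2AC8 (26.7 and 16.3). H2AC15 had no Xenome mean beside 562.3 for its partner H2BC15, and H2AC1 and H2BC1, testis histones, were both without one. The deposited span of H2BC15 covers those of H2AC15 and H2AC16, and the part of this overlap in its value was not tested.

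**Figure D3:**
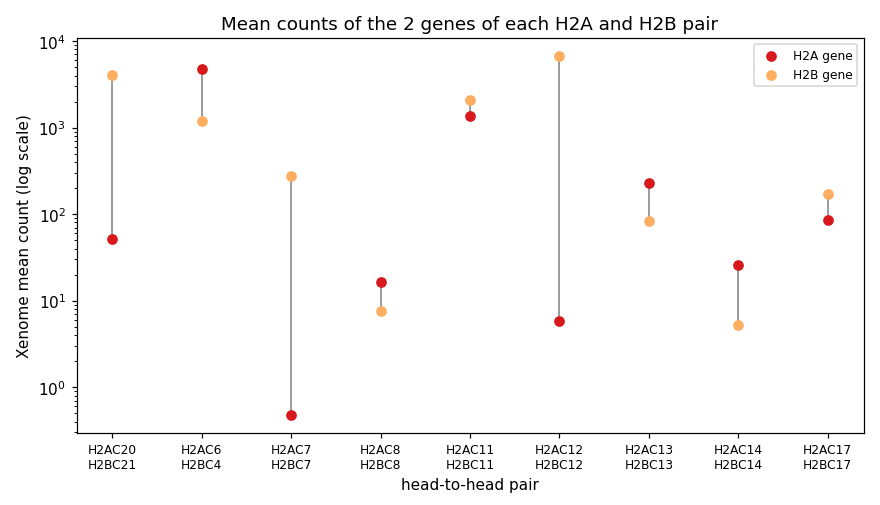
Xenome mean counts (log scale) of the 9 head-to-head pairs in which both genes have a value; red points are H2A genes, orange points H2B genes, and grey lines join the genes of a pair. The widest gap is H2AC12 at 5.83 and H2BC12 at 6757.

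Promoters were searched for motifs known from histone genes, namely the CCAAT box, the TATAAA box and the octamer ATTTGCAT bound by OCT1 (POU2F1), each on both strands. RefSeq sequences (GRCh38.p14, 250 bases before to 50 after the start) matched 62 members, and where a gene had several windows the one nearest its start site in GENCODE release 44 was taken. The window of H2BC6 lies within its gene, downstream of its first start site in that release. CCAAT was present in all 49 promoters of H1, H2A, H2B and H3 genes and in 3 of 13 of H4 genes, beside 34.6% of all 35116 windows, in which some genes have several. The octamer was present in 14 of 17 H2B and 11 of 15 H2A promoters, in none of the 11 H3, 6 H1 and 13 H4 promoters, and in 1.77% of all windows. The H2A and H2B genes of a head-to-head pair share most of their windows, so their matches are not separate observations. TATAAA was present in 43 of the 62, beside 11.5% of all windows. Matches of different motifs can share up to 2 bases at their ends. The promoters of H2BC12, H1-2 and H4C9 are given because these genes had the highest Xenome mean counts of the H2B, H1 and H4 classes, with matches on either strand in capitals.
H2BC12: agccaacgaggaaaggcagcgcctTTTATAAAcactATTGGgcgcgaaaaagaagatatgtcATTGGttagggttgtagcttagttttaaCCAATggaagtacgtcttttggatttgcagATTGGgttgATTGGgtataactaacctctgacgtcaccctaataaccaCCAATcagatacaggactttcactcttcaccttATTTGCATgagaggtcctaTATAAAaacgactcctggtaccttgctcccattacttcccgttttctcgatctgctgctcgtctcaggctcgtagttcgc
H1-2: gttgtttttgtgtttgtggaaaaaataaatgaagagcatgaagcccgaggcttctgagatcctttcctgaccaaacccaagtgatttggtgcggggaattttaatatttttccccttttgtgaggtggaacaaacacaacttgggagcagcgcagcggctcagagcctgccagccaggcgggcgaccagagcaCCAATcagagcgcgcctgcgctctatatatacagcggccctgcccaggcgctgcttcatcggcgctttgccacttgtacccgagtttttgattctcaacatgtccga
H4C9: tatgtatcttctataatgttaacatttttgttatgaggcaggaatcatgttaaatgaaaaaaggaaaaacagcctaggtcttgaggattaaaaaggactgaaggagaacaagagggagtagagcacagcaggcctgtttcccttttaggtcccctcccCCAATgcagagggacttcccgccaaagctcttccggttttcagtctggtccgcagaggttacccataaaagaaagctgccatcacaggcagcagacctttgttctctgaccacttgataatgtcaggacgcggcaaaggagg
They lie at chr6:27146806-27147105 and chr6:26056421-26056720 on the minus strand and at chr6:27139032-27139331 on the plus strand. The H2BC12 window covers the DNA between the start sites of H2BC12 and H2AC12 in GENCODE release 44, and it holds the octamer, CCAAT and TATAAA on one strand or the other. That of H1-2 holds CCAAT and neither of the others. That of H4C9 also holds CCAAT alone, and is among the 3 H4 promoters with that motif.

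The pipelines count in different ways. The Xenome and XenofilteR values come from featureCounts on aligned reads, and Kallisto divides reads among the transcripts they are compatible with. XenofilteR and Xenome each gave 42 members a mean of at least 10, and their sums were 42449 and 42517. Kallisto gave 48 members at least 10 and a sum of 48708. Over the 49 members with a mean of at least 10 in Xenome or Kallisto and a value in both, the median ratio of the Kallisto to the Xenome mean was 1.01, and 25 lay within 10% of equality, beside a median of 1.03 and 57.1% of genes within 10% over 14863 protein-coding genes. The ratio was at least 2 in 11 members (22.4%), beside 17.6% of those protein-coding genes, and at most 0.5 in none, beside 0.881%. Of these 11, 6 had a Xenome mean under 10 (H2AC7, H2BC8, H3C8, H3C14, H3C15 and H4C14) and entered only through Kallisto, in which they had to be high. With a Xenome mean of at least 10 required, 5 of 42 members had a ratio of at least 2, beside 8.75% of 13347 protein-coding genes, and the median was 0.986.

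The 5 highest ratios were those of H3C14 at 281, H2AC19 at 231, H4C14 at 144, H4C15 at 126 and H3C15 at 106. H3C14 and H3C15 were both given a mean of 178.5 by Kallisto, beside 0.635 and 1.69 in Xenome. H2AC19 was given 3406 beside 14.7, H4C15 1660 beside 13.2, and H4C14 1184 beside 8.21. H2AC18, the partner of H2AC19, was given 147.6 beside 30.1. All 6 belong to 3 pairs on chromosome 1 whose coding sequences did not differ at any base, over 393 bases in H2AC18 and H2AC19, 411 in H3C14 and H3C15, and 312 in H4C14 and H4C15. H4C11 and H4C12 on chromosome 6 were also identical over 312 coding bases. For these Kallisto gave 79.1 to H4C11 and 0 to H4C12, while Xenome gave 11.8 and 2.85. Reads from such a pair cannot be assigned to a single gene over the coding sequence, so the level of each gene is uncertain in all 3 pipelines. The deposited spans of H3C14 and H4C14 also overlap on opposite strands, as do those of H3C15 and H4C15, and whether counting used strand is not given in the sources used here. The deposited span of H2AC17, with a ratio of 3.55, overlaps that of H3C12 on the same strand. In all, 13 members have a span that overlaps another protein-coding gene, often another member, and 6 of these had a Xenome mean of at least 10. The share of all protein-coding genes with such an overlap was not computed, so whether 13 is unusual is not known. The 5 lowest ratios were 0.786 for H2BC12, 0.789 for H4C4, 0.792 for H4C9, 0.831 for H2AC14 and 0.848 for H3C12.

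Unique sequence was measured as the percent of a gene's distinct 31-base sequences found in the transcripts of no other human gene in GENCODE release 44. Its median was 87.4% over the members and 95.3% over 19778 protein-coding genes. It was highest in H1 (median 99.6%) and lowest in H2A (80.6%), and it was 0% for H2AC18, H3C15 and H4C15. Among the 42 members with a Xenome mean of at least 10, 10 were under 50% unique, with ratios from 0.786 to 231 and a median of 2.72, and these held all 5 ratios of at least 2 (H2AC17, H2AC18, H2AC19, H4C11 and H4C15). The other 32 had ratios from 0.789 to 1.88 and a median of 0.983. Spearman's rho between unique sequence and ratio was -0.48 over the 42 members, which share sequences and libraries and are not independent. Of the members with a low Xenome mean, H3C8 was at 15.8 with Kallisto and 0.450 with Xenome at 98.5% unique sequence, and H2BC8 was at 26.7 and 7.58 at 97.6%. Sequence shared with mouse transcripts was small by the same measure, with a median of 1.83% over the members, beside 0.506% over protein-coding genes, and a maximum of 16.4% in H2BC13.

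**Figure D4:**
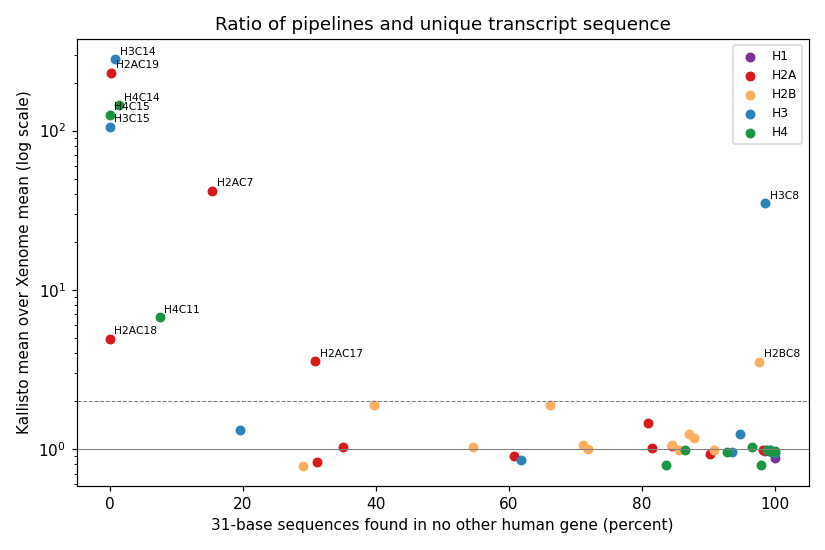
Ratio of the Kallisto to the Xenome mean count (log scale) against the percent of 31-base sequences found in no other human gene, for 49 members coloured by class. The solid line marks equality and the dashed line a ratio of 2; the named genes are the 11 members above it, of which 6 have a Xenome mean under 10 and are plotted only because their Kallisto mean is high.

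The low mean counts are sums of whole reads, each worth a fixed value in its library, so that reads per library could be solved. Of the 59 members with a Xenome mean, 47 were solved, all with a mean up to 562.3, and for the other 12, among them the highest 11, only the mean is known. The 6 solved libraries carry no label, and which culture each came from was not determined. They are numbered by size factor, from 5.93, 5.31 and 4.86 for libraries 1 to 3 to 0.427, 0.145 and 0.109 for libraries 4 to 6. The solved members had 22044, 19809 and 18800 reads in the first 3 and 1244, 366 and 267 in the rest. A count of 3 reads, taken as the floor, equals a normalised count of 0.506 in library 1 and of 27.6 in library 6. Normalised counts are reads divided by the size factor, and intervals are 95% exact Poisson intervals that cover counting error only.

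H2BC15, the highest solved member, had normalised counts of 650.8, 583.5, 607.4, 635.3, 455.8 and 440.8 in libraries 1 to 6. Its values were lowest in libraries 5 and 6. H2BC7 had 356.6, 347.6, 391.0, 208.6, 151.9 and 192.9, from 2113, 1847, 1901, 89, 22 and 21 reads. H3C6 had 432.2, 424.0, 438.1, 293.0, 386.8 and 266.3. H4C5 had 199.5, 248.0, 253.0, 121.9, 69.1 and 192.9. In these 3 genes libraries 1 to 3 held the highest values. For H4C5 the interval of library 6, from 21 reads, was 119.4 to 294.8 and spanned the values of libraries 1 to 3. Other members went differently, with H2BC17 highest in library 6, at 220.4, and H4C3 highest in library 5, at 131.2. H1-4 ranged from 91.8 to 250.2 with a median of 151.5, and H2AC13 from 110.2 to 343.5 with a median of 237.7.

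Over the 19 members with at least 3 reads in every library, the ratio of the highest to the lowest normalised count had a median of 2.57 and ranged from 1.48 to 7.37. The 5 widest were H2AC18 at 7.37, H2AC16 at 4.79, H2AC17 at 4.77, H1-5 at 3.97 and H4C1 at 3.67. The 3 reads required equal a normalised count of 20.7 in library 5 and 27.6 in library 6. A gene of low mean therefore entered only if it was high in these libraries. H4C1 had 3 reads in library 6 and H2AC18 had 4, so their high values there are in part set by this requirement. H2AC18 had 14.8, 21.3, 29.4, 9.38, 69.1 and 36.7, highest in library 5, where 10 reads gave an interval of 33.1 to 127. H1-5 had 193.5, 218.7, 214.7, 154.7, 103.6 and 55.1, lowest in library 6, where 6 reads gave an interval of 20.2 to 119.9. H2AC17 had 93.7, 108.8, 131.4, 58.6, 89.8 and 27.6, and H2AC16 had 74.8, 90.3, 99.3, 53.9, 20.7 and 45.9. Both were highest in library 3. H4C1 was lowest in library 1, at 13.2, and highest in library 5, at 48.3, with a median of 23.6. Where a gene was low the shallow libraries set the precision, and 8 solved members had no read in libraries 4 to 6.

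**Figure D5:**
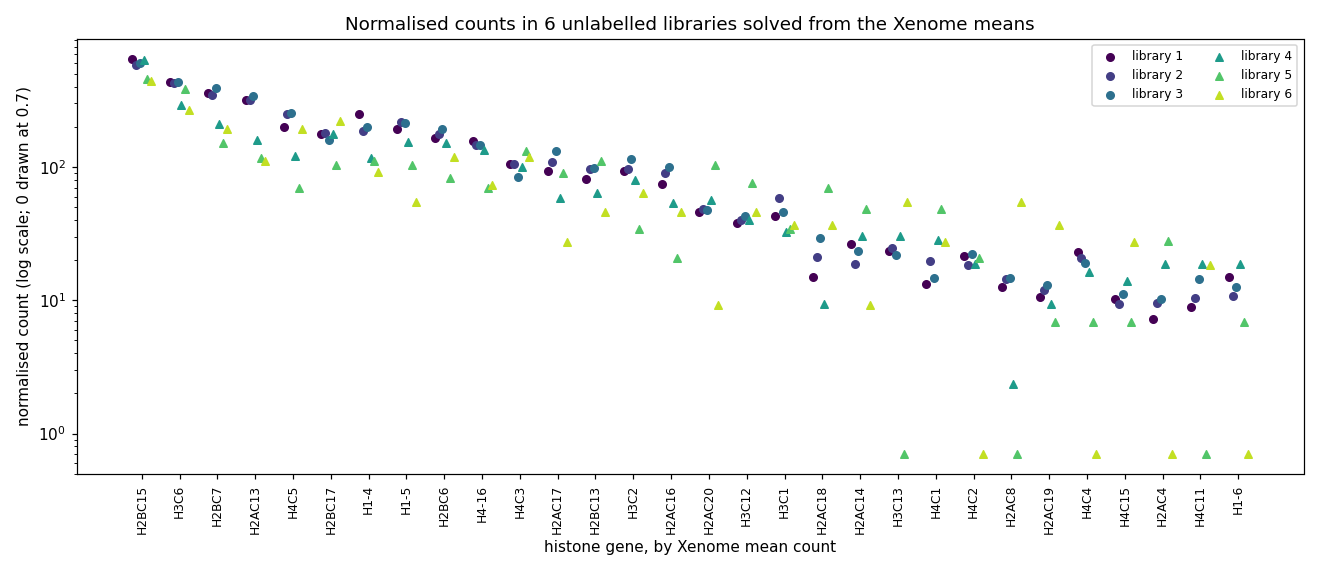
Normalised counts (log scale, 0 drawn at 0.7) of the 30 solved members with a mean of at least 10 in each of 6 unlabelled libraries, numbered by size factor; circles are libraries 1 to 3 and triangles libraries 4 to 6. The spread of the triangles widens towards the right, where means fall to 10.6 and a shallow library holds few reads.

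Genes that act on histone mRNA and histone proteins were listed beside the members, and their values are mean counts not corrected for length. All 19 listed genes of histone mRNA synthesis, processing and decay had a Xenome mean of at least 10, beside 66.9% of protein-coding genes, from 530.5 for CTIF to 11841 for CPSF2, with a median of 2191. SLBP, the stem-loop binding protein, was at 3821. NPAT, the activator of histone gene transcription at S phase, was at 1868, and the U7 snRNP proteins LSM10 and LSM11 were at 1569 and 595.4. The 10 histone chaperones ran from 929.2 for HIRA to 11547 for RBBP4, with a median of 4030. HIRA was at 3106 with Kallisto, where ASF1A was lowest at 1811 and RBBP4 highest at 16146. CHAF1A and CHAF1B, subunits of the chaperone that deposits H3 and H4 at the replication fork, were at 4611 and 3184.

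The 12 histones listed as replication-independent, most of which are also made outside S phase and from polyadenylated mRNA, had a summed mean count of 107675. Of the 12, 10 exceeded 1000, beside 36.7% of protein-coding genes. H2AX, on this list at 9908, was among the 11 genes other than members in which the stem-loop was found. H2AZ1 was highest at 25304, and MACROH2A1 and H3-3B followed at 17477 and 17146. MACROH2A2 was lowest with Xenome at 127.2, and H3-5 was at 186.5 with Xenome and 8.66 with Kallisto, the lowest value there. H3-3A, an H3.3 gene with several near copies in the genome, was at 3148 with Xenome and 20302 with Kallisto. In the cell type check, the 8 prostate markers of the list that the table holds were between 4603 and 51038. Of 9 osteoblast markers 5 were under 10, and COL1A1 was highest at 3384 with Xenome and 4557 with XenofilteR. COL1A2 was at 45.0 with Xenome and 263.6 with XenofilteR.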

How the data were processed

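The authors prepared stranded mRNA libraries and processed the reads in 3 ways. Human reads kept by Xenome were aligned with HISAT2 to GRCh38, or reads were aligned to GRCh38 and GRCm38 before XenofilteR removed mouse reads, and both were counted with featureCounts. The third quantified joined human and mouse transcripts with Kallisto. The authors ran DESeq2 on the counts. The authors deposited, for each pipeline, the mean over 6 libraries of counts divided by size factors, which is the value used here. The deposited columns of the authors' own comparison (log2 fold change, standard error, statistic, p-value and adjusted p-value, 15 in all) were not used. Of 41734 rows, 21 repeated a gene and were dropped. Reads per library were solved from the Xenome and XenofilteR means, exhaustively below 10 (each of 20014 Xenome means had 1 solution) and jointly up to 600, where a solution was kept only if fewer than 0.01 accidental ones were expected. The solver was tested on simulated data whose Xenome and XenofilteR reads were nearly equal, and the outcome is not reported here. The ratio of the XenofilteR to the Xenome mean was 0.948 in the solved member H2BC13, a difference that the simulation did not cover. Sequences came from GENCODE releases 44 and M21, hg38 and RefSeq, and 65 members were matched by identifier and 2 by symbol. Only 6 members had the same span in GENCODE release 44 as in the table, so lengths per kb are those of release 44 and not those the authors counted. Members, lists, the rule for named genes (highest means, highest of each class, extreme ratios, widest spread) and tests were chosen with earlier results of these data known. The stem-loop pattern, the widest gap of 400 bases between paired start sites and the splits of the gene span at 100 bases and of unique sequence at 50% were set after seeing the values. Analyses used matplotlib 3.10.9, pysam 0.24.0, numba 0.67.0, scipy 1.17.1, pandas 2.3.3 and numpy 2.4.6 under Python 3.11.15.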

Additional observations from a re-analysis of the deposited data

How the results depend on the processing

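No paired analysis was possible because the table holds no values per labelled library, and for the same reason the planned edgeR test, other normalizations, fits without a low count filter and fits without one replicate were not run. The protein identity of members was not computed. The number of members with a mean of at least 10 was 42 with XenofilteR and 48 with Kallisto, and 50 and 28 members reached 1 and 50 with Xenome. The sum of the members' means was 42449 with XenofilteR, 48708 with Kallisto and 12190 without the 6 members of the polyadenylated list. The share held by the highest 10 was 89.0% with XenofilteR and 79.5% with Kallisto. The median ratio of Kallisto to Xenome was 0.997 with a minimum of 1, 1.03 with a minimum of 50, 1.02 against XenofilteR and, in an alternative chosen after seeing the data, 0.986 with a minimum of 10 in Xenome alone. The median percent shared with mouse transcripts was 3.98% with 25 bases and 0% with 50 bases. Summed normalised counts of the solved members moved by less than counting error with XenofilteR in all 6 libraries. Solved reads are biased towards genes of low mean, with 2149 of 2149 protein-coding genes solved up to a mean of 1 and 562 of 757 from 400 to 600. They may also favour genes of similar level in the libraries, which was not measured. In library 6, 1 read adds 1.53 to a mean. Per kb of coding sequence, an alternative chosen after seeing the data, the H2B gene was higher in 5 of the 9 pairs, against 4 per kb of exon. The cause of these differences was not tested.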

Other observations

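The 6 unlabelled libraries fell into 3 with many human reads and 3 with few, and the summed values of the solved members differed with that split. The highest 10 members, which held 89.0% of the family's summed mean count, are not among the solved members. The summed normalised count of the 47 solved members was 3720, 3728 and 3867 in libraries 1 to 3 and 2916, 2528 and 2452 in libraries 4 to 6, with 95% exact Poisson intervals of 3671 to 3769 in library 1 and 2167 to 2765 in library 6. Without H2BC15 the sums were 3069, 3144, 3260, 2281, 2072 and 2011. As a share of the reads of all solved protein-coding genes, the members held 0.516%, 0.497%, 0.516%, 0.429%, 0.366% and 0.358%. Sums by class cover solved members only, and the highest gene of every class is missing from them. By Xenome mean, H1-2 held 97.3% of the H1 sum, H2AC6 71.2% of H2A and H2BC12 40.0% of H2B. H3C10 held 77.6% of H3 and H4C9 46.1% of H4. The solved H1 members summed to 459.7, 418.5, 425.8, 293.0, 221.0 and 146.9, and the solved H2A members to 620.8, 662.8, 727.5, 412.6, 483.4 and 358.2. The solved H2B members summed to 1450, 1404, 1469.7, 1273, 918.6 and 1019, the solved H3 members to 634.8, 650.1, 668.3, 475.9, 538.7 and 468.4, and the solved H4 members to 554.3, 592.2, 575.7, 461.8, 366.0 and 459.2. Of the 30 solved members with a mean of at least 10, libraries 1 to 3 were all above libraries 4 to 6 in 13 (43.3%) and all below in 1, H4C1. The same held for 22.2% and 8.52% of 4357 other solved protein-coding genes with a mean of 10 to 600. Of the 9 osteoblast markers, 5 were solved (ALPL, BGLAP, IBSP, POSTN and SP7), and their summed normalised counts were 14.3, 8.09, 9.46, 2.34, 27.6 and 9.18 in libraries 1 to 6. POSTN had no read in libraries 1 to 3 and 1, 2 and 1 reads in libraries 4 to 6, and ALPL and SP7 had none in libraries 4 to 6. COL1A1, COL1A2, RUNX2 and SPARC were not solved, and the part of the markers in the histone values was not tested. The split is drawn from the sizes of the libraries, the culture of each was not determined, no test was made, and the part of depth in it was not tested.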
